A study of Mus musculus with 11 samples.

Results

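Absorptive colonocytes are the surface cells of the colon that take up water and salts and exchange bicarbonate, and their marker genes were followed here in mouse colorectal organoids. The set held 10 genes, chosen by name from the 47131 genes of the deposited count table: the hormones Guca2a and Guca2b, the carbonic anhydrases Car1 and Car4, the water channel Aqp8, the sulfur enzyme Selenbp1, the adhesion molecules Ceacam1 and Ceacam20, and the membrane proteins Emp1 and Ms4a8a. No expression value entered the rule, but the set was chosen with earlier results of these data known. Organoids are epithelial cultures embedded in Matrigel, and these were raised from colon of C57BL/6J females at an age of 6 to 8 weeks. Poly(A)-selected RNA was sequenced in 11 libraries, 6 after 48 h with NAP at 10 pM and 5 controls, which are described as untreated in one label and as given PBS vehicle in another. The labels do not spell out NAP. The titles call the replicates biological, but the labels do not say whether they came from separate mice or cultures. The p-values therefore measure library-to-library spread only, and how much of that spread is technical is not known.

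Colonocytes arise from stem and dividing cells at the crypt base, and they gain these transcripts as they move up toward the surface and stop dividing. Guanylin and uroguanylin, made from Guca2a and Guca2b, are secreted peptides that bind guanylate cyclase C, encoded by Gucy2c, and raise cyclic GMP in the epithelium. Carbonic anhydrases convert carbon dioxide and water into bicarbonate and protons, which feed the ion exchangers of the apical membrane. In bulk RNA, fewer cells of a type and less RNA per cell cannot be told apart.

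All 10 genes were detected in every library and passed the filter on low counts, and 1 of them, Ceacam1, passed the test between NAP and control. Over all 14840 tested genes 1.05% were called higher and 1.07% lower. For 6 of the 10 every NAP library fell between the lowest and the highest control, as for 26.5% of all tested genes. Library totals ranged from 16546263 to 21947414 counts. Controls 2 and 5 agreed closely with each other (r of log2 CPM 0.983 across genes, which are not independent replicates), and so did controls 1 and 4 (0.973), while across these pairs r was 0.854 to 0.883. The replicates of both pairs differed by more than counting noise (median chi-square per gene 2.13 and 8.08, against 0.455, scaled by library totals only). This does not show that they came from separate mice or cultures. Each was counted as a sample, and if the libraries of a pair share a source, the p-values are too small. Most listed markers of stem and dividing cells were higher in controls 1 and 4 than in controls 2 and 5. The colonocyte genes ran the other way, Ceacam1 only slightly. Slc12a2, an ion cotransporter high in crypts, stood at 1005, 104, 439, 984 and 105 CPM in controls 1 to 5. Mki67, a marker of dividing cells, stood at 196, 18, 121, 237 and 16.3 CPM. Others did not: the stem cell marker Prom1 stood at 592, 561, 686, 541 and 664 CPM. Pcna, on the list of dividing cells, stood at 169.6, 203, 233, 157 and 212 CPM. CPM values are counts adjusted for library size by TMM. In the NAP libraries Slc12a2 ranged from 208 to 412 CPM and Mki67 from 36.8 to 119 CPM. The 16 stem cell markers summed to 853 to 2626 CPM in controls and 1065 to 1567 CPM after NAP, and the 10 markers of dividing cells to 307 to 1076 and 464 to 683 CPM. Of the stem cell markers 14 were tested, 13 with a negative log2 fold change and none called. Their part in the results below was not tested. Controls 2 and 5 also showed reads for more genes (27218 and 25725) than the other libraries (19828 to 22390) and lower values of long genes (rank correlation of deviation with gene length −0.38 and −0.35, against −0.21 to 0.18 elsewhere). Between the groups, the rank correlation of deviation with GC content was 0.02 to 0.36 in controls and −0.54 to 0.12 after NAP, and the mitochondrial share of counts was higher in every NAP library (5.17 to 8.08%) than in every control (2.74 to 4.78%). Values with such trends or the mitochondrial chromosome removed are given with Ceacam1, and the part of the number of genes detected was not tested.

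Summed over the 10 genes, controls 1 to 5 stood at 3119, 19123, 6619.6, 2449.9 and 17929 CPM, and NAP libraries 1 to 6 at 7353, 12786, 8255, 12087, 11040.3 and 9587 CPM. Controls 2 and 5 were the 2 highest of the 11 libraries and controls 1, 4 and 3 the 3 lowest. Among the 10 genes the ratio of the highest to the lowest control had a median of 7.59, and over all 14840 tested genes it had a median of 2.24. In the NAP libraries these medians were 2 and 1.97.

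**Figure D1:**
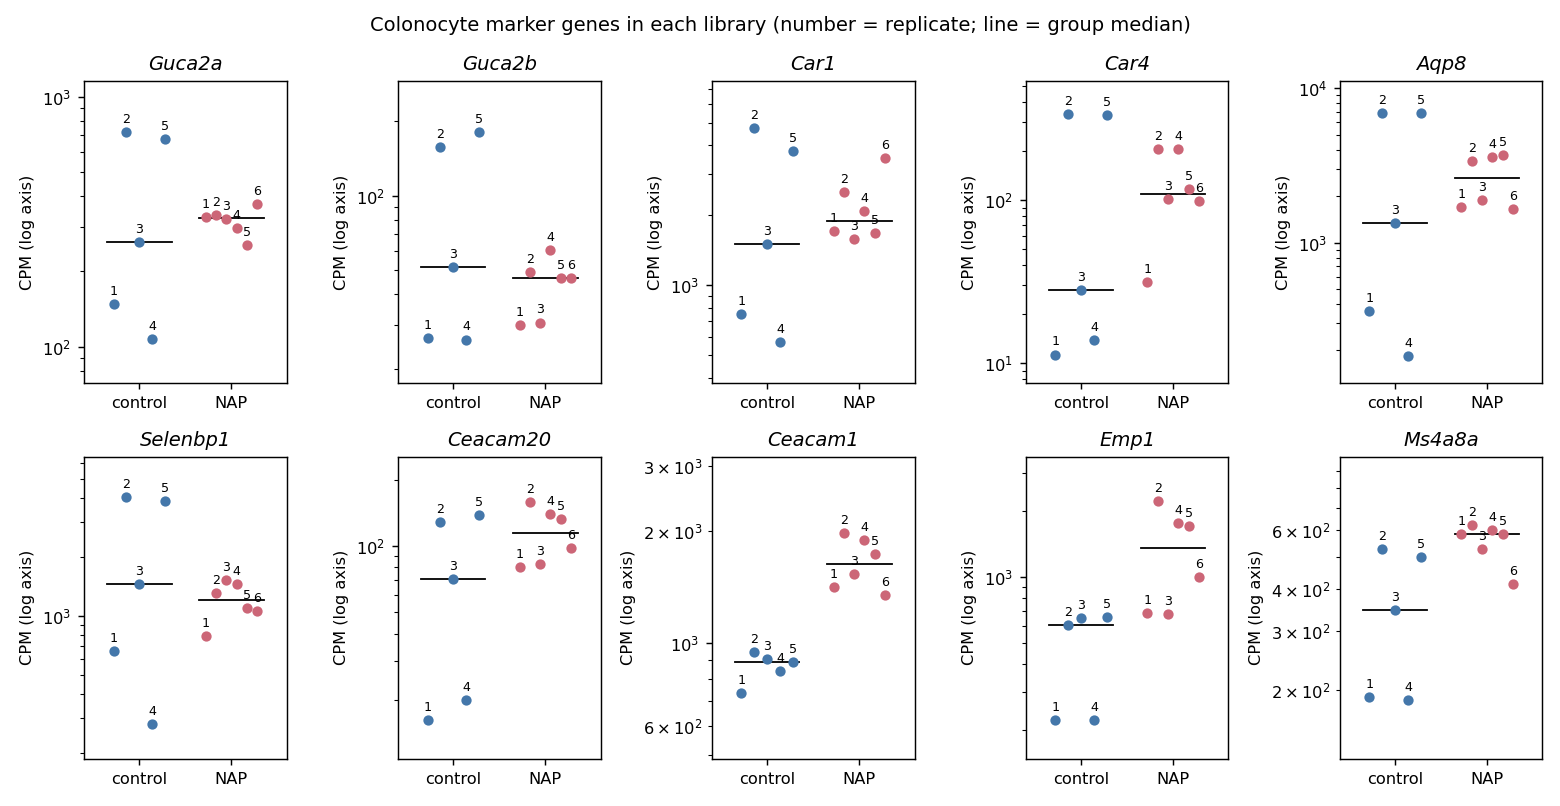
TMM-scaled CPM (log axis) of each colonocyte gene in 5 control and 6 NAP libraries; points carry the replicate number and lines mark group medians. Controls 2 and 5 and controls 1 and 4 lie at opposite ends in most panels, whereas for Ceacam1 and Emp1 all NAP points lie above all control points.

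Guca2a and Guca2b are neighbours on chromosome 4. In GRCm39, Guca2a spans chr4:119494929-119496662 on the plus strand and Guca2b chr4:119513798-119516142 on the minus strand, with 17135 bases between their ends. Guca2a and Guca2b took nearly the same order across controls, while Car1 and Selenbp1 matched the control order of Guca2a exactly. Within the 6 NAP libraries, r of log2 CPM for Guca2a and Guca2b was −0.22. The 250 bases before each start site are shown for this pair and for Ceacam1, the gene that passed the test. They come from RefSeq on GRCm38.p6 (Guca2a chr4:119637482-119637731, plus strand; Guca2b chr4:119658946-119659195, minus strand; Ceacam1 chr7:25477626-25477875, minus strand), and capitals mark matches to the motifs named below.
Guca2a: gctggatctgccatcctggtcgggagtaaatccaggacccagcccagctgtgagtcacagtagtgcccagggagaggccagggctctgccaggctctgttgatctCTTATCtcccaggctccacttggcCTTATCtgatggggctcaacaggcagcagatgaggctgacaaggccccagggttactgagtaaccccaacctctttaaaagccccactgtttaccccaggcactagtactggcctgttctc
Guca2b: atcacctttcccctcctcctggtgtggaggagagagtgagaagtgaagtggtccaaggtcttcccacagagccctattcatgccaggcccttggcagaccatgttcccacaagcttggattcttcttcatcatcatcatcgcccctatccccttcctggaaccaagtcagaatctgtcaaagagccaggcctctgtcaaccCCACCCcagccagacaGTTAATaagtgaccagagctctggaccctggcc
Ceacam1: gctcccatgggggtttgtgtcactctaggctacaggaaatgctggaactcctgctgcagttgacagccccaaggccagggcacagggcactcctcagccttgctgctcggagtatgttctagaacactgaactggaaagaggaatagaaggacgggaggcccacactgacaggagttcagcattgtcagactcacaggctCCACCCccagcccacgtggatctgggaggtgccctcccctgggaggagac
A RefSeq window was found for 9 of the 10 genes, not Car1. Words of 6 or more letters were searched on both strands, for intestinal factors and for the TATA box, a general promoter element. They were TTTATG for CDX, GTTAAT for HNF1, CAAAGNNCA for HNF4, TATAAA for the TATA box, CTTATC for GATA and CCACCC for KLF. Guca2a held the GATA word at −145 and −121 from its start site, a word found in 6.5% of 32851 mouse windows of this length. The window of Guca2b held the HNF1 word at −33, found in 6.4% of windows, and the KLF word at −49, found in 28.1%. Ceacam1 held the KLF word at −50, which also occurred in the windows of Aqp8 and Ceacam20. The CDX word, present in 10.8% of windows, occurred before Selenbp1 (−48) and before 1 of the start sites of Emp1 (−110). The TATA word, in 12.4% of windows, occurred before Selenbp1 (−113). These CDX and TATA matches all lay on the opposite strand. The HNF4 word, in 5.5% of windows, was in none of the windows found for the colonocyte genes. A match of letters is a description and shows no binding.

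Guca2a, the guanylin gene, stood at 148, 722, 262, 107 and 676 CPM in controls 1 to 5, and its NAP libraries had a lowest value of 255, a median of 327 and a highest value of 370.3 CPM. The NAP libraries lay together inside the control range, with a highest to lowest ratio of 1.45 against 6.72 in controls. Control and NAP means were 383 ± 294 (SD, n = 5) and 319 ± 39 CPM (SD, n = 6), a log2 fold change of −0.26 ± 0.43 (SE here and below) that did not pass (edgeR adjusted p = 0.741). Its sign changed with the controls kept: it was 0.91 without controls 2 and 5 and −0.76 without controls 1 and 4 (adjusted p = 0.0582 and 0.0885). With all libraries it was also positive on log scales and with GC trends removed, at 0.01 to 0.55.

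Guca2b, the uroguanylin gene, ranked below Guca2a per length in every library and stood at 26.6, 157, 51.6, 26.3 and 181 CPM in controls 1 to 5. After NAP its lowest, median and highest values were 30, 46.5 and 60.5 CPM. All NAP libraries lay below controls 2 and 5 and above controls 1 and 4, and 5 of 6 lay below control 3. The means were 88.5 ± 74.8 and 43.9 ± 11.7 CPM, with a log2 fold change of −1.01 ± 0.48 (edgeR adjusted p = 0.223). Without controls 1 and 4 it was called lower, at −1.53 (adjusted p = 0.0265), and without controls 2 and 5 the value was 0.36 (adjusted p = 0.399). The 2 transcripts are of similar length (560 and 602 bases). The ratio of Guca2a to Guca2b CPM within a library, chosen after the values were seen and not tested, was 5.59, 4.6, 5.07, 4.09 and 3.73 in controls and 10.9, 6.83, 10.6, 4.94, 5.47 and 7.97 after NAP. NAP libraries 1, 2, 3 and 6 lay above all controls in this ratio, and NAP libraries 4 and 5 lay within the control range.

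Downstream of the hormones, 11 genes of guanylin and cyclic GMP signalling were tested and none was called, with a median log2 fold change of 0.03. The receptor gene Gucy2c, named after its values were seen, was steadier than its ligands at 223 ± 22.4 and 249 ± 14.6 CPM (edgeR adjusted p = 0.48). Abcc4, which exports cyclic nucleotides, had 108 ± 72.3 and 55 ± 15.5 CPM (adjusted p = 0.121). Slc26a3, the chloride and bicarbonate exchanger of the colonocyte surface, had 903 ± 537 and 715 ± 161 CPM (adjusted p = 0.623). Slc26a3 did not share the low values of control 1: it stood at 1040.4 CPM there, against 342 and 333 CPM in controls 3 and 4.

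Car1 encodes a cytosolic carbonic anhydrase (chr3:14831274-14873425, minus strand, GRCm39). Its 5 controls stood at 753, 4718, 1509.6, 568 and 3773 CPM, and the NAP libraries had a lowest value of 1574, a median of 1895 and a highest value of 3523 CPM. Every NAP library was above controls 1, 3 and 4 and below controls 2 and 5. The control and NAP means were close, at 2264 ± 1873 and 2178 ± 743 CPM, with a log2 fold change of −0.06 ± 0.50 (edgeR adjusted p = 0.958). It was 1.23 without controls 2 and 5 and −0.58 without controls 1 and 4 (adjusted p = 0.0643 and 0.284).

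Car4 encodes a carbonic anhydrase held on the outer face of the apical membrane by a lipid anchor (chr11:84848580-84856880, plus strand). It had the widest NAP range of the 10 genes. Controls stood at 11.3, 336, 28.2, 13.8 and 333 CPM, and NAP libraries at a lowest of 31.4, a median of 109 and a highest of 205 CPM. Controls 2 and 5 lay above and the other 3 controls below every NAP library, as for Car1 and Aqp8. The means were 144 ± 173 and 127 ± 67.8 CPM and the log2 fold change −0.19 ± 0.83 (edgeR adjusted p = 0.911). Without controls 2 and 5, Car4 was called higher, at 2.85 ± 0.56 (adjusted p = 0.0386), and without controls 1 and 4 it stood at −0.84 (adjusted p = 0.398). Of 16 carbonic anhydrase genes 10 were tested and none was called, with 4 positive and 6 negative values and a median of −0.06. Car2, the other abundant cytosolic form, had 1911 ± 863 and 2355 ± 290.3 CPM (adjusted p = 0.57).

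Aqp8, a channel for water and hydrogen peroxide (chr7:123061517-123067226, plus strand), spread furthest among the controls. They stood at 359, 6945, 1347, 184 and 6953 CPM, a range of 37.8-fold that was wider than in 99.4% of tested genes or equal to it. The NAP libraries had a lowest value of 1639, a median of 2639 and a highest value of 3687 CPM, a range of 2.25-fold. All 6 lay in the gap between controls 2 and 5 and the other 3 controls. Means of 3158 ± 3489 and 2648 ± 1007 CPM gave a log2 fold change of −0.25 ± 0.76 (edgeR adjusted p = 0.864). It was 2.09 without controls 2 and 5 and −0.91 without controls 1 and 4 (adjusted p = 0.0568 and 0.208). Of 11 aquaporin genes 5 were tested and none was called. Aqp1, a water channel among the stem cell markers, ran the other way among controls, at 97.5, 2.51, 17.8, 50.1 and 1.15 CPM.

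Selenbp1 encodes a methanethiol oxidase, which breaks down a sulfur compound made by gut bacteria (chr3:94840394-94852069, plus strand). Controls stood at 658, 4043, 1449, 279 and 3825 CPM, and after NAP the lowest, median and highest values were 791, 1201 and 1527 CPM. The NAP libraries lay near or below control 3 and well below controls 2 and 5. Means of 2051 ± 1772 and 1204 ± 276 CPM gave a log2 fold change of −0.77 ± 0.54 (edgeR adjusted p = 0.412). Without controls 1 and 4 it was called lower, at −1.33 ± 0.31 (adjusted p = 0.0298), and without controls 2 and 5 the value was 0.62 (adjusted p = 0.327). Its near-identical neighbour Selenbp2, named after its values were seen, held 76 to 384 counts against 6098 to 57882 for Selenbp1, and how shared reads were divided is uncertain.

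The 9 genes of sulfide and methanethiol metabolism, Selenbp1 and Selenbp2 among them, all had negative log2 fold changes with all libraries. Over all tested genes 6640 of 14840 were positive. Without controls 2 and 5, Selenbp1 and Selenbp2 were positive too (0.62 and 0.71). The median of the 9 was −0.77 with all libraries, and 1 was called. That gene was Cbs, which makes cystathionine and hydrogen sulfide, at 31.3 ± 15.7 and 6.23 ± 4.75 CPM (log2 fold change −2.32 ± 0.54, edgeR adjusted p = 0.0476). Its NAP libraries all lay below every control. The call was lost without controls 1 and 4 (adjusted p = 0.074), and of the fits that left out 1 library it held only in those without NAP 1 or NAP 3 (adjusted p 0.0333 to 0.12 over the 11 fits). It was also lost with upper-quartile factors (0.0525), library totals only (0.0719), no filter (0.133) and either trend removal (0.0746 and 0.0852). Mpst, which makes sulfide from mercaptopyruvate, followed the controls in the way Selenbp1 did, at 86.9, 865, 231, 49.9 and 822 CPM, with NAP values of 159 ± 49.1 CPM (adjusted p = 0.199). Without controls 2 and 5 its log2 fold change was 0.39.

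**Figure D2:**
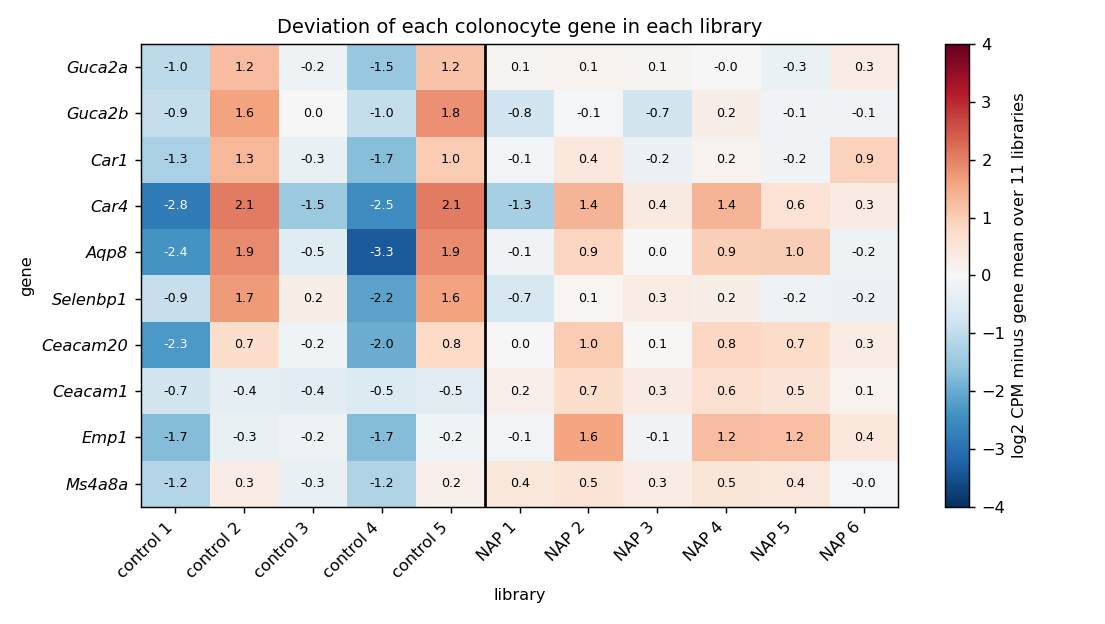
Deviation of log2 CPM of each colonocyte gene (rows) from its mean over the 11 libraries (columns); red is higher and blue lower. Controls 1 and 4 are blue in every row and controls 2 and 5 red in every row except Ceacam1 and Emp1.

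Ceacam1, a cell adhesion receptor with an inhibitory cytoplasmic tail found on the apical surface of gut epithelium (chr7:25161127-25177072, minus strand), was higher after NAP. The controls stood close together at 732, 945, 904, 841 and 890.2 CPM, and the NAP libraries had a lowest value of 1343, a median of 1634 and a highest value of 1982 CPM. Every NAP library lay above every control. Its control range of 1.29-fold was among the narrowest, wider than or equal to that of 6.2% of tested genes. Means of 863 ± 81.7 and 1650.2 ± 259 CPM gave a log2 fold change of 0.94 ± 0.18, or 1.91-fold (edgeR adjusted p = 0.0383). Over all 14840 genes, 156 (1.05%) were called higher and 159 (1.07%) lower, against 1 and 0 of the 10 colonocyte genes. All NAP libraries lay above all controls for 317 genes (2.14%) and below all controls for 382 (2.57%), against 2 and 0 of the 10. Every NAP library lay between the lowest and the highest control for 26.5% of tested genes, and for Car1, Car4, Aqp8, Guca2a, Guca2b and Selenbp1.

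The fold change of Ceacam1 varied little between fits, while its call did not hold in all of them. Beside the GC and mitochondrial values above, it was 0.90 with the GC trend removed (adjusted p = 0.0659), 0.85 with the GC and length trends removed (adjusted p = 0.067) and 0.94 with the mitochondrial chromosome left out (adjusted p = 0.0395). It was 1.02 without controls 2 and 5 (adjusted p = 0.0386) and 0.88 without controls 1 and 4 (adjusted p = 0.0273). With each library left out in turn it ranged from 0.88 to 1.00, and the adjusted p from 0.0303 to 0.112. The call held in 4 of these 11 fits, those without control 4 or NAP 1, 3 or 6. It was lost without control 1, 2, 3 or 5 or NAP 2, 4 or 5, and without these the count of all called genes fell from 315 to between 0 and 158. Ceacam2, a near-identical paralog, held 84 to 749 counts against 12432 to 33113 for Ceacam1, and an antisense noncoding gene within Ceacam1 held 11 to 77.

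Ceacam20, an immunoglobulin family receptor of microvilli (chr7:19699277-19725038, plus strand), was the least abundant of the 10 per length in 9 of 11 libraries. Controls stood at 16.2, 128, 70.9, 19.9 and 139 CPM, and the NAP libraries at a lowest of 80.1, a median of 115 and a highest of 159 CPM. All NAP libraries lay above controls 1, 3 and 4, and NAP 2 and 4 lay above controls 2 and 5 too. Means were 74.9 ± 58 and 115 ± 32.8 CPM, with a log2 fold change of 0.62 ± 0.50 (edgeR adjusted p = 0.468). Without controls 2 and 5 it was called higher, at 1.71 ± 0.45 (adjusted p = 0.0498), and without controls 1 and 4 it was 0.06 (adjusted p = 0.899).

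In the Ceacam family 7 of 15 genes were tested, all with positive log2 fold changes, beside 6640 of 14840 over all tested genes. Their median was 0.62, and Ceacam1 alone was called. Ceacam2 had 8.93 ± 6.8 and 21.5 ± 16.2 CPM (edgeR adjusted p = 0.179). Of 6 genes for signalling partners of Ceacam1 and Ceacam20, 1 was called. Syk, a kinase that binds the phosphorylated tail of Ceacam20, was 1.96-fold higher, at 40.1 ± 2.64 and 78.7 ± 21.5 CPM (adjusted p = 0.0417). NAP library 6 stood apart at 41.3 CPM, inside the control range of 36.3 to 43.2 CPM, and the other NAP libraries held 71.6 to 96.2 CPM. With each library left out the Syk call held in 4 of 11 fits, those without control 4 or NAP 1, 3 or 6 (adjusted p 0.0263 to 0.116). With all libraries it was also lost with library totals only (0.0597), on log2(FPKM + 1) (0.0512) and with the GC and length trends removed (0.066).

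Emp1, a membrane protein with 4 membrane-spanning segments (chr6:135339548-135360171, plus strand), had the largest log2 fold change of the 10 genes. Controls stood at 223, 604, 651, 222 and 660.5 CPM, and the NAP libraries at a lowest of 677, a median of 1357 and a highest of 2215 CPM. Every NAP library lay above every control, with NAP 1 and 3 (688 and 677 CPM) just above controls 3 and 5. NAP 2, 4 and 5 stood at 2215, 1771 and 1716 CPM. Means of 472 ± 229 and 1344 ± 644 CPM gave 1.51 ± 0.42, or 2.85-fold, which did not pass (edgeR adjusted p = 0.0672). It passed without NAP 1 or NAP 3, its lowest NAP libraries (adjusted p = 0.0467 and 0.0465), and in DESeq2 (adjusted p = 0.00545). Those fits called 814, 790 and 1721 genes in all, against 315 in the main fit. In the other 23 of 26 settings Emp1 did not pass. The adjusted p was 0.159 without NAP 2, 0.144 with the GC trend removed and 0.142 with the GC and length trends removed. It was 1.90 without controls 2 and 5 and 1.10 without controls 1 and 4 (adjusted p = 0.0509 and 0.089). Of 6 genes of its family 4 were tested and none was called. Pmp22, its best known relative, had 142 ± 57.9 and 249.9 ± 59.6 CPM (adjusted p = 0.104) and passed without controls 2 and 5 (adjusted p = 0.0386).

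Ms4a8a, a membrane protein of the family that holds the B cell antigen CD20 (chr19:11044835-11058467, minus strand), stood at 190.1, 525, 346, 187 and 498 CPM in controls 1 to 5. After NAP the lowest, median and highest values were 415, 584 and 620.2 CPM. NAP library 6 was below controls 2 and 5, and the other 5 NAP libraries were above every control. Means of 349 ± 162 and 555 ± 75.4 CPM gave a log2 fold change of 0.67 ± 0.28 (edgeR adjusted p = 0.18). Without controls 2 and 5 it was called higher, at 1.22 ± 0.24 (adjusted p = 0.0386), and without controls 1 and 4 it was 0.31 (adjusted p = 0.31). Of 20 Ms4a genes 4 were tested and none was called.

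**Figure D3:**
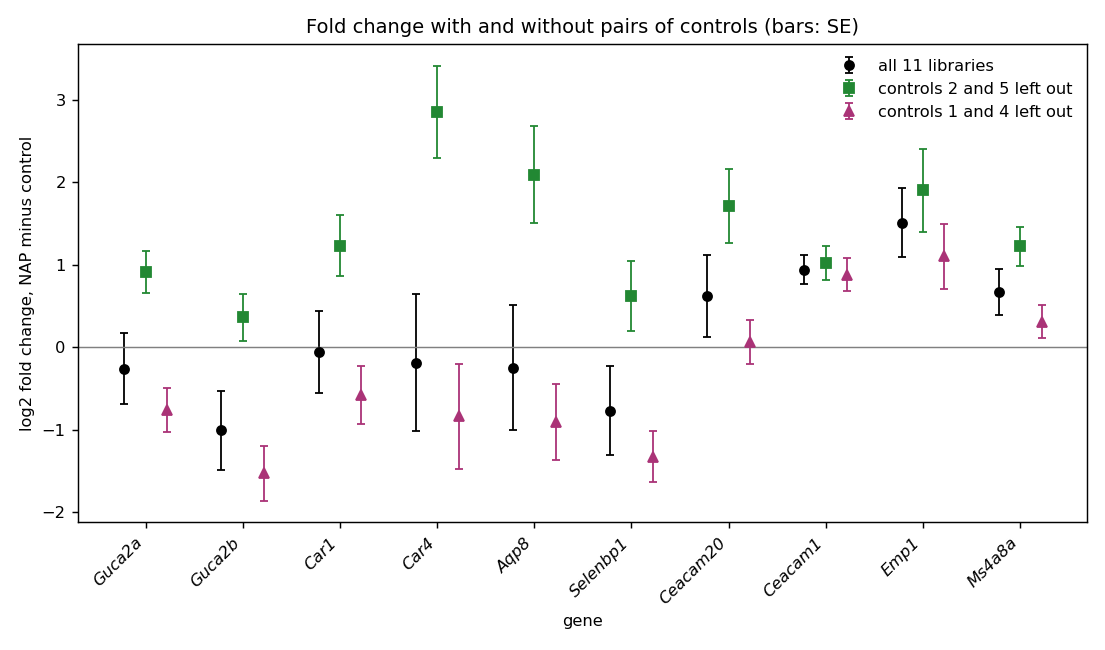
Log2 fold change (NAP minus control) with its SE for each colonocyte gene from edgeR, with all 11 libraries, without controls 2 and 5, and without controls 1 and 4. Ceacam1 keeps a value of 0.88 to 1.02, and Guca2a, Guca2b, Car1, Car4, Aqp8 and Selenbp1 lie above 0 without controls 2 and 5 and below 0 without controls 1 and 4.

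Over the 10 genes the median log2 fold change was −0.12, with 4 positive, beside −0.07 and 6640 positive among 14840 tested genes. Without controls 2 and 5, 4 of the 10 were called, all higher (Ceacam1, Ms4a8a, Car4 and Ceacam20), where 2.71% of 15501 tested genes were called higher and 2.61% lower. Without controls 1 and 4, 3 were called, Ceacam1 higher and Selenbp1 and Guca2b lower, where 2.82% of 15873 tested genes were called higher and 5.46% lower. The pairs were left out because they stood apart in these same data. The direction of calls made only in these fits follows from that choice, and they are no support for a change. The sign of Car1, Car4, Aqp8 and Guca2a also differed between methods: with all libraries each was negative in edgeR and positive in limma on voom values (0.30, 1.02, 0.81 and 0.08). At an unadjusted p below 0.05, 3 of the 10 and 3495 of all genes passed.

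The genes differed in how they ran together. Over the 11 libraries, r of log2 CPM was 0.95 for Car1 and Guca2a, 0.94 for Aqp8 and Ceacam20, 0.93 for Aqp8 and Car4, and 0.93 for Guca2a and Selenbp1. Ceacam1 and Emp1 ran together (0.88), while Ceacam1 had r of 0.07 with Selenbp1 and −0.12 with Guca2b. Within the 6 NAP libraries Emp1 and Ceacam20 had r of 1.00 and Aqp8 and Ceacam1 0.93, and Aqp8 and Guca2a had −0.70. In these values NAP 2, 4 and 5 were the 3 highest NAP libraries for Aqp8, Ceacam1, Ceacam20, Emp1 and Car4, and NAP 6 was the highest for Car1 and Guca2a. NAP 2, 4 and 5 also resembled one another over all genes (r 0.98 to 0.983). These correlations share libraries and scaling and are descriptions.

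Compared per length in the deposited FPKM values, Car1 ranked first or second among the 10 genes in every library, with a median of 1127 FPKM. Aqp8 had a median of 1223 FPKM and moved between rank 1, in controls 2 and 5 and 4 NAP libraries, and rank 6, in control 4. Selenbp1 (757), Guca2a (562), Ms4a8a (471), Ceacam1 (344) and Emp1 (203) followed with overlapping ranks. Guca2b (75.8), Car4 (60.2) and Ceacam20 (31.9) were the lowest by median. In control 4 Ceacam1 was rank 2, and in controls 2 and 5 it was rank 7, while its own level differed little between them.

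**Figure D4:**
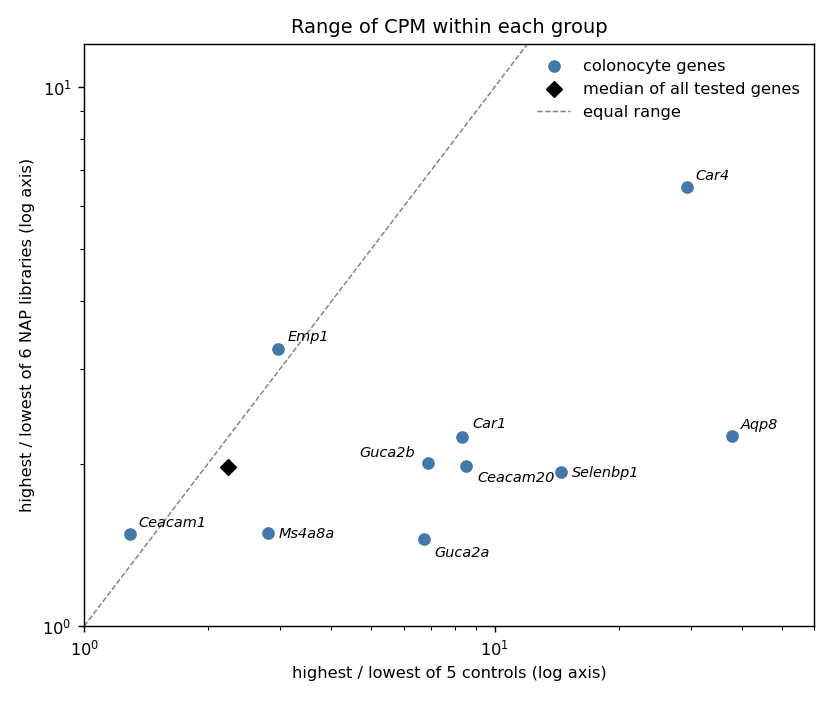
Ratio of the highest to the lowest CPM within the 5 controls (horizontal, log axis) and within the 6 NAP libraries (vertical, log axis) for each colonocyte gene, with the median of all tested genes as a diamond at 2.24 and 1.97. Aqp8, Car4 and Selenbp1 lie far to the right, and Ceacam1 and Emp1 lie on the upper side of the line of equal range.

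The genes most like each member over the 11 libraries, taken from 11258 genes by r of log2 CPM, are given here as a description. Car1 was most like Nr1h4, the bile acid receptor FXR (r 0.987), Aqp8 most like Hsd17b2, a steroid dehydrogenase (0.989), and Guca2a most like Ttc38 (0.984). Ceacam20 was most like Arpc2 (0.991), Mall and Krt20 (0.99), the last a keratin of surface epithelium, and Emp1 most like Slc35f5 (0.991). Guca2b was closest to Glb1 (0.984), Selenbp1 to Tpi1 (0.982), Ms4a8a to Fam161a (0.984) and Car4 to Gabarap (0.968). Ceacam1 was most like Rnf103, Ly75 and Nr3c2, the mineralocorticoid receptor, each with r of 0.969. All 3 were called higher, with log2 fold changes of 0.65, 0.93 and 0.82 (edgeR adjusted p = 0.042, 0.0442 and 0.0386), and their likeness includes the difference between groups. Leaving out 1 library, the calls held in 3, 2 and 5 of 11 fits, each time including those without NAP 1 and NAP 3 (adjusted p up to 0.12). With all libraries the 3 calls were also lost with library totals only (0.0589, 0.0567 and 0.0513) and no filter (0.0901, 0.0817 and 0.0566). Either trend removal lost them too (adjusted p up to 0.225).

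Of 29 other colonocyte genes 27 were tested and 1 was called, with 18 positive and 9 negative values and a median of 0.21. Dhrs9, a retinol dehydrogenase, was 3.12-fold higher, at 4.13 ± 1.78 and 12.9 ± 2.78 CPM (edgeR adjusted p = 0.0343), and every NAP library lay above every control. Leaving out 1 library at a time, the Dhrs9 call held in 5 of 11 fits, those without control 3 or 4 or NAP 1, 3 or 6 (adjusted p 0.0296 to 0.112). With all libraries it was also lost with library totals only (0.0513) and with either trend removal (0.0659 and 0.0661). Clca4b, a secreted chloride channel regulator family member, had 5.97 ± 3.3 and 15.7 ± 5.84 CPM (adjusted p = 0.0764).

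Among 20 regulators of colonocyte differentiation 1 was called, with a median log2 fold change of −0.01. Hes1, a Notch target that favours absorptive over secretory fate, was 1.48-fold lower, at 96 ± 13.6 and 64.8 ± 5.29 CPM (edgeR adjusted p = 0.0477), and every NAP library lay below every control. The Hes1 call was lost without controls 2 and 5 (adjusted p = 0.0679), and leaving out 1 library it held only without control 4, NAP 1 or NAP 3 (adjusted p 0.0371 to 0.128). With all libraries it was also lost under RLE factors (0.0532), library totals only (0.0589), no filter (0.167), limma on voom (0.0504) and on log2 FPKM (0.0541 and 0.0551), and either trend removal (0.0936 and 0.127). Cdx1, an intestinal homeobox factor, had 313 ± 92.4 and 160.4 ± 61 CPM (adjusted p = 0.0694). Prdm1, a repressor known for keeping the suckling-type epithelium of the young mouse intestine, had 9.44 ± 4.56 and 34 ± 18.9 CPM (adjusted p = 0.0521). For Prdm1, NAP library 1 at 12.5 CPM lay inside the control range of 4.2 to 13.5 CPM.

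Markers of non-epithelial cells were low, and some epithelial lists followed the 10 genes among the controls. Summed over their lists, markers of fibroblasts stood at 0.229 to 3.94 CPM in controls and 0.168 to 22.2 CPM after NAP (the highest in NAP 5), smooth muscle at 0.55 to 1.86 and 0.122 to 0.813 CPM, endothelium at 3.46 to 6.32 and 2.87 to 4.95 CPM, immune cells at 6.55 to 14.7 and 10 to 23.9 CPM, and glia and neurons at 1.06 to 3.84 and 0.838 to 2.07 CPM. Most of these genes were too low to be tested: 0 of 7 for fibroblasts, 0 of 5 for smooth muscle, 1 of 5 for endothelium, 3 of 7 for immune cells and 1 of 5 for glia and neurons passed the filter. Small intestinal enterocyte markers, 11 of 14 tested, summed to 309, 1052, 520.1, 267 and 1092 CPM in controls 1 to 5 and 686 to 1087 CPM after NAP. Enteroendocrine markers, 9 of 10 tested, summed to 223, 615, 539, 335 and 591 CPM in controls and 253 to 563 CPM after NAP. Squamous markers, 3 of 9 tested, summed to 80.5, 116, 71.2, 53.6 and 118 CPM in controls and 77.7 to 194 CPM after NAP. Sprr1a held most of this sum, at 76.3, 111, 67.5, 45.3 and 111 CPM in controls, so the list gives little on squamous cells. In all 3 lists controls 2 and 5 were the highest controls, as they were for 8 of the 10 colonocyte genes.

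Goblet cells are the other main mature cell of the colon, and their 11 markers, all tested, summed to 4147, 3733, 3775, 7706 and 3719 CPM in controls and 2269 to 5122 CPM after NAP. The list was split among the controls. Muc2, its most abundant gene, stood at 2854, 369, 1255, 4961 and 345 CPM. Zg16, a lectin-like goblet cell protein on that list, instead stood at 44.7, 1923, 323, 104 and 1993 CPM in controls, high in controls 2 and 5, and had r of 0.967 with Car4. Clca1 and Tff3 on that list were also highest in controls 2 and 5 among the controls. No tested gene of the goblet, enterocyte, enteroendocrine, squamous or non-epithelial lists was called. The part of these cells in the results above was not tested.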

How the data were processed

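Whole-number read counts per gene were deposited by the authors for 11 libraries, 5 control and 6 NAP, with groups and numbers taken from the titles. Per the submitters' processing notes, Trimmomatic 0.39, HISAT2 2.2.1, featureCounts and Subread 2.0.8 were used with GRCm39. The strand setting and the handling of multi-mapped reads were not given in the sources used here. FPKM values were also deposited by the authors, each a count divided by gene length and by a constant per library (0.87 to 1.28 times the count total). Genes were kept with edgeR's filterByExpr (14840 tested), scaled with TMM and compared by edgeR 4.0.16 with its quasi-likelihood test (R 4.3.3; all libraries, no covariate), with Benjamini-Hochberg adjustment over all tested genes and a threshold of 0.05. Standard errors were derived from the F statistic, as the size of a log2 fold change over the root of F. A prior count of 2 was used for logged CPM in correlations. A count of 3 in a library, the limit a count of 0 allows, is 0.137 to 0.181 CPM, for counting error only. The 800 genes with no name stayed in the fit and are not named. The members and lists were chosen with earlier results of these data known. The genes named are the 10 members, in each list those called and others drawn from the 2 largest changes and the 2 highest levels, and for each member genes from the 3 most alike by r. A gene outside this rule is said to be named after its values were seen. The alternatives were other scalings and filters, DESeq2 1.42.0, limma 3.58.1 on voom values and on log2 FPKM with a pseudocount of 1 or 0.1, a replicate block, libraries left out singly and in pairs, the mitochondrial chromosome left out, and lowess trends on transcript GC content (span 0.3; GENCODE M21, found for 84% of genes) and gene length removed. The fit and the trend removal were tested on simulated data.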

Additional observations from a re-analysis of the deposited data

How the results depend on the processing

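With all 11 libraries 315 genes were called, 1 of them a colonocyte gene. The number of called genes was 1721 in DESeq2 (2 of the 10), 41 with library totals only, 89 with no filter on low counts, 824 without controls 2 and 5 (4 of the 10), 1315 without controls 1 and 4 (3 of the 10), 25 with the GC trend removed and 0 with the GC and length trends removed (0 of the 10 in both). At an unadjusted p below 0.05 the last setting gave 2358 genes and 3 of the 10, and DESeq2 gave 3848 and 4. Leaving out 1 library at a time gave 0 to 814 called genes and 0 to 2 of the 10; the fits with 0 calls held 2614 to 3311 genes at an unadjusted p below 0.05. The same replicate numbers were not treated as pairs, since the correlations of same-numbered libraries were 0.42, 0.34, −0.07, −0.30 and 0.30 and 2 of 5 controls correlated best with their own number. A replicate block gave 0 called genes and 0 of the 10 in edgeR (2903 and 4 at an unadjusted p below 0.05).

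No log2 fold change printed here that passed the test with all 11 libraries reversed in any setting tried. Car4, Selenbp1 and Guca2b, called only with a pair of controls left out, had the other sign in other settings. Those that reversed did not pass with all libraries. On voom, log2(FPKM + 1), log2(FPKM + 0.1) and with the replicate block, the values were 0.30, 0.36, 0.36 and 0.19 for Car1, 1.02, 0.92, 0.97 and 0.97 for Car4, 0.81, 0.90, 0.90 and 0.88 for Aqp8, and 0.08, 0.14, 0.14 and 0.09 for Guca2a. Car1 was 0.04 with library totals only and 0.01 with no filter. Without controls 2 and 5 the values were 1.23 for Car1, 2.85 for Car4, 2.09 for Aqp8, 0.91 for Guca2a, 0.36 for Guca2b, 0.62 for Selenbp1, 0.71 for Selenbp2, 0.39 for Mpst and 0.35 for Slc26a3. With the GC and length trends removed they were 0.03 for Car1, 0.28 for Car4, 0.31 for Aqp8, 0.55 for Guca2a and 0.15 for Selenbp2, and with the GC trend removed 0.01 for Guca2a. Selenbp2 was 0.16 on voom and 0.04 on log2(FPKM + 0.1), and Slc26a3 was 0.03 with the replicate block. Without controls 1 and 4, Car2 was −0.07 and Aqp1 0.98. Leaving out 1 library, values ranged from −0.30 to 0.41 for Car1, −0.48 to 0.40 for Car4, −0.55 to 0.27 for Aqp8, −0.50 to 0.11 for Guca2a and −0.62 to 0.01 for Selenbp2. The causes of these reversals were not tested. Ceacam1 kept its direction in all 26 settings and its call in 16, losing it with the replicate block (0.98, adjusted p = 0.137), with the GC trend or both trends removed and in 7 of the fits without 1 library. The lowest level of any of the 10 genes, 11.3 CPM, was above the limit that a count of 0 allows.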
